A study of Mus musculus with 12 samples.

Results

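Isg15 and the ISGylation machinery were followed across 12 RNA sequencing libraries of N9 cells, a mouse line derived from microglia (the macrophages that live in brain tissue) and made immortal. The 5 genes were taken by symbol from the 54532 genes of the deposited count table. They are Isg15, Uba7, Ube2l6, Herc6 and Usp18, and all 5 were among the 12766 genes with enough counts to be tested. There were 4 groups of 3 libraries. The high-fructose group had medium with 15 mM fructose and then lipopolysaccharide (LPS, a bacterial outer-membrane component that activates Toll-like receptor 4). The high-glucose group had medium with 15 mM glucose and then LPS. The control-medium LPS group and the control-medium group without LPS had the base medium alone, which holds 3 mM glucose and 5 mM fructose and on which the raised-sugar media were built. Sugar exposure lasted 18 h before LPS at 1 µg/ml for 6 h. No group listed had raised sugar without LPS, none was an osmotic control, and the labels do not say whether 15 mM is the final or the added concentration. Nor do they say whether libraries of this single line were grown as separate cultures, so the p-values rest on the spread among libraries, and that spread may be technical.

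ISG15 is a ubiquitin-like protein that is attached to lysines of other proteins by an enzyme cascade, a process called ISGylation. UBA7 is the E1 enzyme that activates ISG15, UBE2L6 is the E2 enzyme that carries it, and HERC6 is the main E3 ligase that attaches it in mice, a role that HERC5 has in humans. USP18 removes ISG15 from its targets and, apart from that activity, binds the type I interferon receptor subunit IFNAR2 and restrains signalling from it. In microglia and other macrophages, LPS acts through the adaptor TRIF and the factor IRF3 to induce interferon beta. Interferon then activates ISGF3, a complex that holds STAT2 and IRF9 and binds the interferon-stimulated response element in the promoters of responding genes.

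In the GRCm38 (mm10) build, Isg15 (ENSMUSG00000035692) lies on the minus strand of chromosome 4 from 156199424 to 156200818, with 2 exons in its longest GENCODE M21 transcript. Uba7 (ENSMUSG00000032596) lies on the plus strand of chromosome 9 from 107975505 to 107984060, with 22 exons. Ube2l6 (ENSMUSG00000027078) lies on the plus strand of chromosome 2 from 84798828 to 84810335, with 4 exons. Herc6 (ENSMUSG00000029798) and Usp18 (ENSMUSG00000030107) are both on the plus strand of chromosome 6, Herc6 from 57581000 to 57664632 with 23 exons and Usp18 from 121245906 to 121270917 with 11.

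Of the 5 genes, 4 were matched by symbol in a RefSeq promoter table (GRCm38.p6). Each promoter was searched on both strands, from 250 bases before the RefSeq start to 50 after it, for GAAANNGAA, the core of the interferon-stimulated response element, and for TTCNNNGAA, the core of the gamma-activated site. Below are the 120 bases before the start of 3 of them, 5′ to 3′ on the gene's strand, shown because the first holds the element and the genes differ widely in how they respond to LPS. Capitals mark GAAANNGAA.
Isg15, chr4:156200819-156200938, minus strand: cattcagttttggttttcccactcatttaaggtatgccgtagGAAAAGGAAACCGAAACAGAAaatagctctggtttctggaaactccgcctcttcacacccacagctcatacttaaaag
Herc6, chr6:57580872-57580991, plus strand: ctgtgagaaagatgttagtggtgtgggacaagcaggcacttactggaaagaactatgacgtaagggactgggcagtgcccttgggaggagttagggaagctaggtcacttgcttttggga
Ube2l6, chr2:84798708-84798827, plus strand: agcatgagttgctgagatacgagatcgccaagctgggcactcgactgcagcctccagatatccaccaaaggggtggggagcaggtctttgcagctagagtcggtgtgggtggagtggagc
The capitals of Isg15 hold 3 matches that overlap one another, from -78 to -70, -72 to -64 and -66 to -58 relative to the start. The windows of Uba7, Ube2l6 and Herc6 held no GAAANNGAA, and no window of the 4 held TTCNNNGAA. Only these cores were searched for, so the windows may still hold related elements that differ from them. Over all 32851 promoters of the table, 8.56% held GAAANNGAA and 8.30% held TTCNNNGAA. By gene, GAAANNGAA was found in 5 of 6 Ifit genes, 3 of 5 Oas genes, 1 of 6 other E1 genes and 1 of 13 other E2 genes, against 9.76% of all 27025 genes with a promoter.

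The whole series sets the scale for these genes. Total counts per library were 15453776 to 16562344 with high fructose, 15919091 to 16743251 with high glucose, 16363767 to 17015639 in control medium with LPS and 16589508 to 17956772 in control medium without it. Microglial markers were mixed: Cd68 stood at 588 to 695 CPM (counts per library brought to one common total), while P2ry12 had 1 to 6 counts and Sall1 at most 1 count in any library. On principal components, high-glucose library 1 stood apart from libraries 2 and 3 of its group on the second (11.9 against -15.8 and -18.5) and high-fructose library 2 on the third (32.2 against 9.58 and 6.20), so results are also given without these libraries where that changes a call. A difference is called where edgeR's quasi-likelihood test gave a p below 0.05 after Benjamini-Hochberg adjustment over all 12766 genes.

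With LPS Isg15 was the most abundant of the 5 transcripts, and without LPS the conjugating enzyme Ube2l6 was. Levels between genes are compared here per length, as FPKM (fragments per kilobase of gene, scaled to the library's total) in the authors' deposited table, as mean ± SD of 3 libraries. High fructose with LPS put Isg15 first at 87.4 ± 8.61 FPKM and Herc6 last at 1.53 ± 0.162 FPKM, while Usp18 (29.9 to 35.9 FPKM) and Ube2l6 (28.1 to 30.3 FPKM) overlapped. High glucose with LPS ran from Isg15 at 167.03 ± 15.997 FPKM through Usp18, Ube2l6 and Uba7 to Herc6 at 2.28 ± 0.138 FPKM. In control medium with LPS the order was Isg15 at 186 ± 6.67 FPKM, Usp18 at 64.9 ± 4.56, Ube2l6 at 37.4 ± 0.348, Uba7 at 4.73 ± 0.556 and Herc6 at 2.65 ± 0.133. No neighbours in that order overlapped in control medium with LPS or with high glucose. In control medium without LPS, Ube2l6 stood at 26.0 ± 1.66 FPKM, Isg15 at 2.17 ± 0.548, Usp18 at 1.44 ± 0.373, Uba7 at 1.19 ± 0.0669 and Herc6 at 0.757 ± 0.0772. The ranges of Isg15 and Usp18 overlapped there, as did those of Usp18 and Uba7. The activating enzyme and the ligase were thus the least abundant transcripts in every LPS group. The table's gene length equals the longest transcript for Isg15 (756 bases) and exceeds it for the other genes. It was 6692 against 3620 bases for Uba7 and 9292 against 4767 bases for Herc6. For Usp18 it was 2790 against 1771 bases and for Ube2l6 1996 against 1560 bases. With the longest transcript's length the order in the 3 LPS groups was kept, Usp18 and Ube2l6 no longer overlapped with high fructose, and without LPS Usp18, Uba7 and Isg15 overlapped, as did Isg15 and Herc6.

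The comparison of control medium with and without LPS asked how the system responds to LPS alone. All 5 genes rose, by amounts that ran from 1.43-fold for Ube2l6 to 85.7-fold for Isg15. The modifier and its protease, Isg15 and Usp18, rose far more than the 3 enzymes that attach ISG15, whose folds were 3.96 for Uba7, 3.49 for Herc6 and 1.43 for Ube2l6. Across all tested genes 28.8% were called, 15.2% higher and 13.6% lower.

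Isg15 stood at 147, 141 and 137 CPM in control medium with LPS, against 2.06, 1.23 and 1.65 CPM without it, where it had only 36, 22 and 31 counts. The groups were far apart, with a log2 fold change of 6.42 ± 0.13 (SE; 95% interval 6.15 to 6.69; adjusted p = 7.59e-17). Usp18 had 194, 182 and 169 CPM with LPS and 5.16, 3.91 and 3.08 CPM without LPS, a log2 fold change of 5.49 ± 0.13 (adjusted p = 5.59e-16).

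Uba7, the activating enzyme, had 27.9, 35.4 and 32.1 CPM with LPS and 8.08, 7.54 and 8.45 CPM without it, and its log2 fold change was 1.99 ± 0.11 (adjusted p = 9.38e-11). Herc6, the ligase, had 24.8, 25.8 and 23.4 CPM with LPS and 7.85, 6.93 and 6.43 CPM without it, with a log2 fold change of 1.80 ± 0.11 (adjusted p = 3.42e-10). No library with LPS overlapped one without in either gene. Ube2l6, the E2 enzyme, had 74.1, 75.3 and 75.3 CPM with LPS and 48.7, 52.8 and 55.3 CPM without it, and its log2 fold change of 0.52 ± 0.06 (adjusted p = 1.47e-06) was the smallest of the 5. The groups did not overlap in any of the 5 genes, nor, in either direction, in 44.3% of all tested genes.

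The direction of the 5 did not turn under any of the 16 other settings run, library totals and upper-quartile scaling included, and Ube2l6 kept a log2 fold change of at least 0.43. Those scalings did alter the split over all genes. It was 1941 higher and 1736 lower with TMM factors, 1622 and 2292 with upper-quartile factors, and 1412 and 2951 when only the library total was used.

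**Figure D1:**
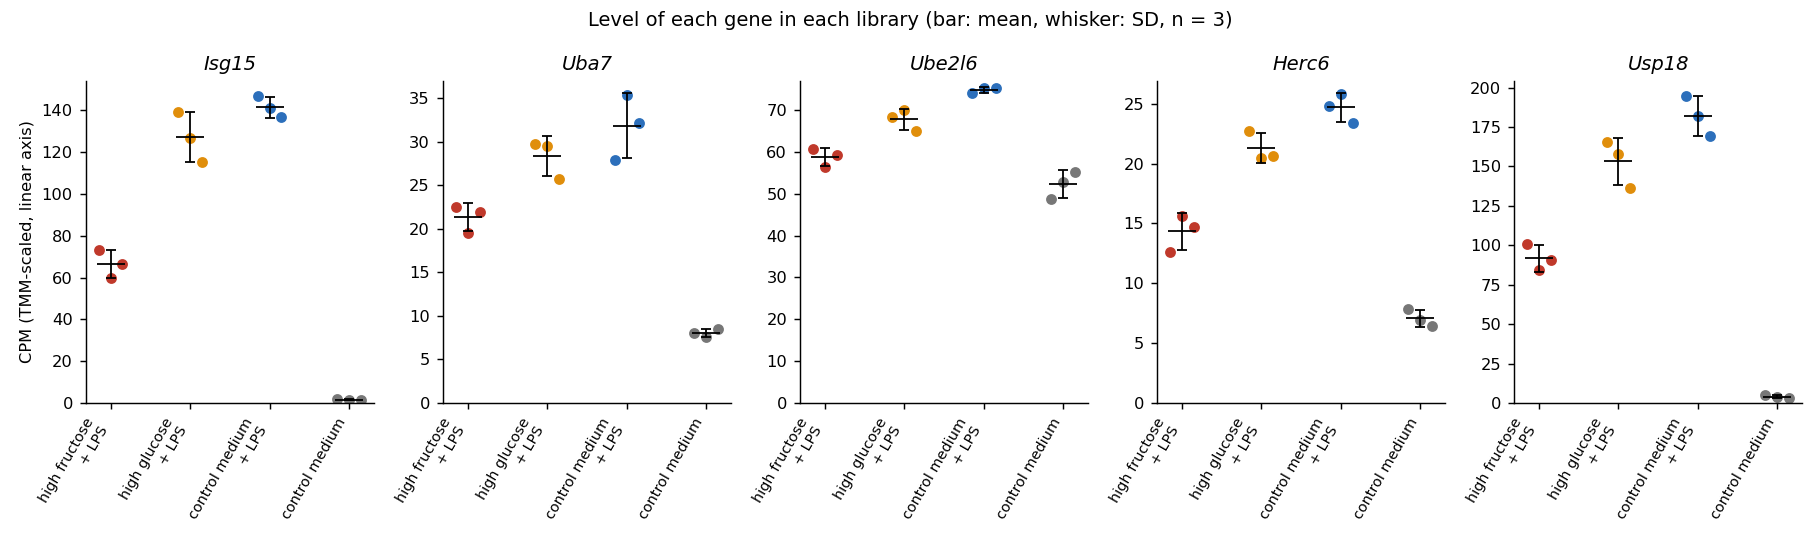
Level of each gene in each library, in CPM on linear axes that start at 0, with the mean and SD of 3 libraries per group. The 3 high-fructose libraries sit below the high-glucose and control-medium LPS libraries in all 5 genes, and Isg15 and Usp18 are close to 0 without LPS.

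High fructose was set against control medium under LPS to ask whether extra fructose alters the response to LPS. All 5 genes fell, by the most in Isg15, which stood at 47.0% of its control-medium LPS level (95% interval 41.9 to 52.7%), and by the least in Ube2l6, at 78.6% (72.2 to 85.5%). Usp18 stood at 50.4%, Herc6 at 58.0% and Uba7 at 67.0%. Of all tested genes 4.91% were called, 2.37% higher and 2.55% lower. The median log2 fold change was -0.78 over the 5 genes and -0.00 over all genes.

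Isg15 had 73.0, 60.03 and 66.5 CPM with high fructose and 147, 141 and 137 CPM in control medium with LPS. Every high-fructose library was below every control-medium LPS library, and Isg15 fell by 1.09 on the log2 scale (SE 0.08; adjusted p = 1.56e-07). Usp18 had 100.7, 84.0 and 90.4 CPM with high fructose and 194, 182 and 169 CPM in control medium with LPS, and it fell by 0.99 on the log2 scale (SE 0.09; adjusted p = 1.69e-06). The modifier and the enzyme that removes it thus both stood near 50% of their control-medium LPS level.

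Herc6 had 12.6, 15.6 and 14.7 CPM with high fructose and 24.8, 25.8 and 23.4 CPM in control medium with LPS, and fell by 0.78 on the log2 scale (SE 0.10; adjusted p = 7.51e-05). Uba7 had 22.5, 19.5 and 21.97 CPM with high fructose and 27.9, 35.4 and 32.1 CPM in control medium with LPS, and fell by 0.58 on the log2 scale (SE 0.10; adjusted p = 0.00127). The spread of Uba7 was widest in the control-medium LPS group. Ube2l6 had 60.8, 56.5 and 59.3 CPM with high fructose and 74.1, 75.3 and 75.3 CPM in control medium with LPS, and fell by 0.35 on the log2 scale (SE 0.06; adjusted p = 0.00101). In none of the 5 genes did the groups overlap, which held, in either direction, for 20.4% of all tested genes.

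All 5 calls held in each of the 6 fits that left out 1 library, and without high-glucose library 1 and high-fructose library 2 together. In bulk RNA, fewer cells that express a gene and less RNA per cell cannot be told apart. Other measures differed between the same groups. Genes of ribosomal RNA took 0.313 to 0.423% of counts with high fructose and 0.457 to 0.585% in control medium with LPS. Summed astrocyte markers were 114 to 118 CPM with high fructose and 94.0 to 103 CPM in control medium with LPS. Nearly all of this was Gja1 and Aldh1l1, while Gfap had at most 10 counts and Aqp4 at most 2 in any library. Summed oligodendrocyte markers were 32.5 to 37.5 CPM with high fructose and 27.7 to 28.9 CPM in control medium with LPS, mostly Mbp, with Olig2 and Sox10 at 0. Summed neuron markers were 11.2 to 13.3 CPM with high fructose and 8.23 to 10.1 CPM in control medium with LPS, mostly Syn1. Reads were found for 6 of 6, 3 of 6 and 5 of 6 markers of these lists with high fructose, and for 5 of 6, 4 of 6 and 6 of 6 in control medium with LPS. Summed microglial markers were 2132 to 2159 CPM with high fructose and 2207 to 2261 CPM in control medium with LPS, with Sall1 at 0 in both groups. The part of these measures in the result was not tested.

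High glucose at the same stated concentration was set against the same control-medium LPS libraries. None of the 5 genes was called by edgeR, although 3 of them had an unadjusted p below 0.05, and DESeq2 and limma called none either. Over all tested genes 1.56% were called, 0.587% higher and 0.971% lower. All 5 fold changes were below 0, from -0.14 for Ube2l6 to -0.25 for Usp18, with a median of -0.17 against 0.00 over all genes.

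Isg15 had 139, 127 and 115 CPM with high glucose and 147, 141 and 137 CPM in control medium with LPS. The groups overlapped, and the 95% interval of the log2 fold change, -0.31 to 0.01, held 0 (adjusted p = 0.383). Usp18 had 165, 158 and 136 CPM with high glucose and 194, 182 and 169 CPM in control medium with LPS. These did not overlap, and its log2 fold change was -0.25 (95% interval -0.43 to -0.06; adjusted p = 0.201). Usp18 was called when no gene was filtered out (adjusted p = 0.00431).

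Herc6 had 22.7, 20.5 and 20.7 CPM with high glucose and 24.8, 25.8 and 23.4 CPM in control medium with LPS, a log2 fold change of -0.21 (95% interval -0.42 to -0.01; adjusted p = 0.338). Ube2l6 had 68.4, 70.0 and 65.0 CPM with high glucose and 74.1, 75.3 and 75.3 CPM in control medium with LPS, a log2 fold change of -0.14 (95% interval -0.26 to -0.02; adjusted p = 0.264). Uba7 had 29.8, 29.5 and 25.8 CPM with high glucose and 27.9, 35.4 and 32.1 CPM in control medium with LPS, a log2 fold change of -0.17 (95% interval -0.37 to 0.04; adjusted p = 0.476). The ligase and the E2 enzyme did not overlap between the groups and the activating enzyme did, so 3 of 5 genes were separate, against 19.2% of all tested genes in either direction, and none of the 3 was called.

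High fructose was also set directly against high glucose, which tests whether the effects of the sugars differ. Of the 5 genes 4 were lower with high fructose: Isg15, Usp18, Herc6 and Uba7. Over all tested genes 3.72% were called, 1.84% higher and 1.88% lower. The largest difference was again in Isg15, at 73.0, 60.03 and 66.5 CPM with high fructose against 139, 127 and 115 CPM with high glucose, and it fell by 0.94 on the log2 scale (SE 0.08; adjusted p = 2.13e-06). Usp18 fell by 0.74 (SE 0.09; adjusted p = 6.93e-05), Herc6 by 0.57 (SE 0.10; adjusted p = 0.00301) and Uba7 by 0.41 (SE 0.10; adjusted p = 0.0257) on the same scale.

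Ube2l6 was not called, with 60.8, 56.5 and 59.3 CPM with high fructose and 68.4, 70.0 and 65.0 CPM with high glucose (log2 fold change -0.20, 95% interval -0.33 to -0.08; adjusted p = 0.0635). In each of the 5 genes all high-fructose libraries were below all high-glucose libraries. Over all tested genes 17.9% did not overlap in either direction, and for Ube2l6 this separation is not a call. The call of Uba7 was lost without high-glucose library 1 (adjusted p = 0.0938), high-glucose library 2 (0.0930), high-fructose library 2 (0.114) or high-fructose library 3 (0.0560). Without high-glucose library 1 and high-fructose library 2 together its adjusted p was 0.198.

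**Figure D2:**
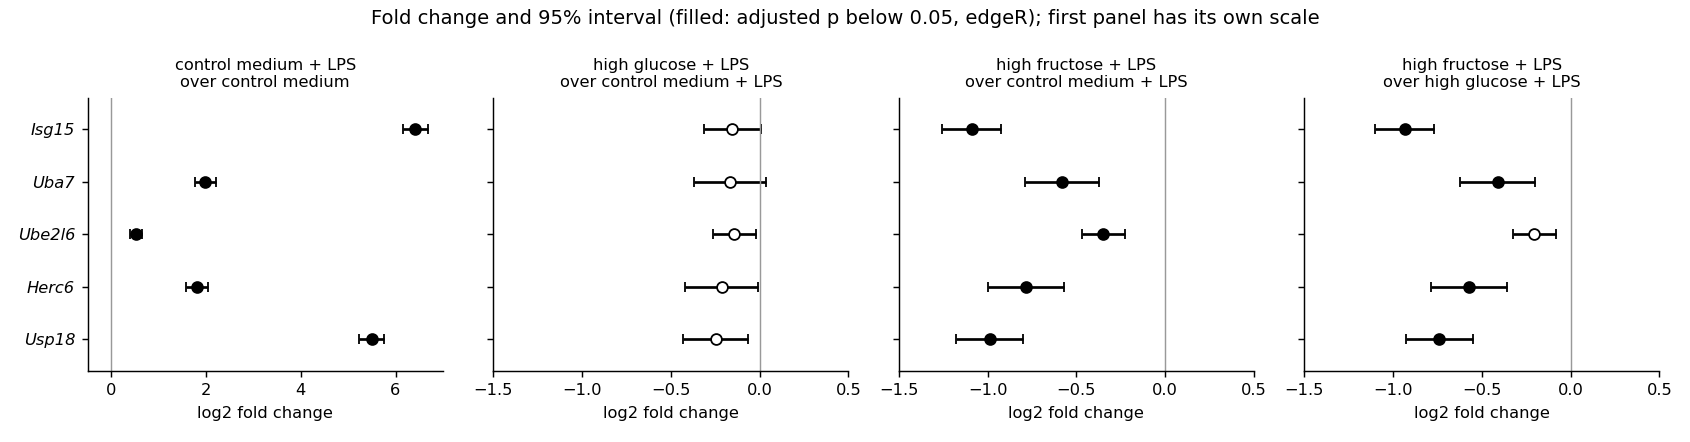
Log2 fold change of each gene with its 95% interval in the 4 comparisons, filled where the adjusted p was below 0.05 (edgeR). The panel for LPS has its own scale, from 0.52 for Ube2l6 to 6.42 for Isg15, and in the panels for sugar Isg15 and Usp18 are the lowest with high fructose.

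Another way to set the sugars side by side is by the CPM that LPS added over control medium without LPS. With high fructose 46.4% of that increase was present for Isg15, 49.3% for Usp18, 55.9% for Uba7, 41.2% for Herc6 and 29.2% for Ube2l6. With high glucose the shares were 89.7% for Isg15, 83.8% for Usp18, 85.4% for Uba7, 80.7% for Herc6 and 68.7% for Ube2l6. On this scale the lowest share in both sugars was that of Ube2l6, whose fold changes were the smallest. No group had raised sugar without LPS, so a lower level before LPS and a smaller increase cannot be told apart here. Ube2l6 in control medium already stood at 52.2 CPM without LPS, against 74.9 CPM with it. These shares are descriptions of group means and use control-medium LPS libraries in both, so the sugars are not independent of each other here.

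The balance between the modifier and its machinery was measured as the ratio of counts per kilobase within each library, which does not depend on library scaling. Length is the table's gene length, which exceeds the longest transcript of every gene but Isg15. The size of a ratio depends on that length, while its log2 difference between groups does not. In control medium, all 4 genes were lower relative to Isg15 with LPS than without it. The log2 differences were -5.91 for Ube2l6, -4.63 for Herc6, -4.45 for Uba7 and -0.92 for Usp18. Each had an exact permutation p of 0.1, or 0.16 after adjustment over 16 ratio tests, so none passed. The ratios without LPS rest on 22 to 36 counts of Isg15. The level of Isg15 was 5.23, 4.94 and 4.80 times that of Ube2l6 in the 3 control-medium libraries with LPS, and 0.113, 0.0629 and 0.0799 times without LPS. Isg15 was thus above Ube2l6 in all 9 libraries with LPS and in none of the 3 without it. With high fructose the level of Isg15 was 3.17, 2.81 and 2.96 times that of Ube2l6, and with high glucose 5.37, 4.78 and 4.69 times.

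Relative to Isg15, Ube2l6 was higher by 0.75 on the log2 scale with high fructose than in control medium with LPS (-1.57 ± 0.0884 against -2.32 ± 0.0634, SD, n = 3; exact permutation p = 0.1). Uba7 was higher by 0.52 relative to Isg15 (-4.78 ± 0.0518 with high fructose against -5.30 ± 0.208 in control medium with LPS; exact p = 0.1). Usp18 was higher by 0.10 (-1.42 ± 0.0213 with high fructose against -1.52 ± 0.0512 in control medium with LPS; exact p = 0.1), so it followed Isg15 most closely. These 3 ratios did not overlap between the groups. Herc6 overlapped, with a difference of 0.31 (exact p = 0.2). The exact two-sided tests cannot go below 0.1 with 3 libraries against 3, and after adjustment over 16 ratio tests the lowest p was 0.16, so none passed. With high glucose the log2 ratios differed from those in control medium with LPS by -0.09 for Usp18, -0.05 for Herc6, -0.00 for Uba7 and 0.01 for Ube2l6 (exact p from 0.2 to 0.9).

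**Figure D3:**
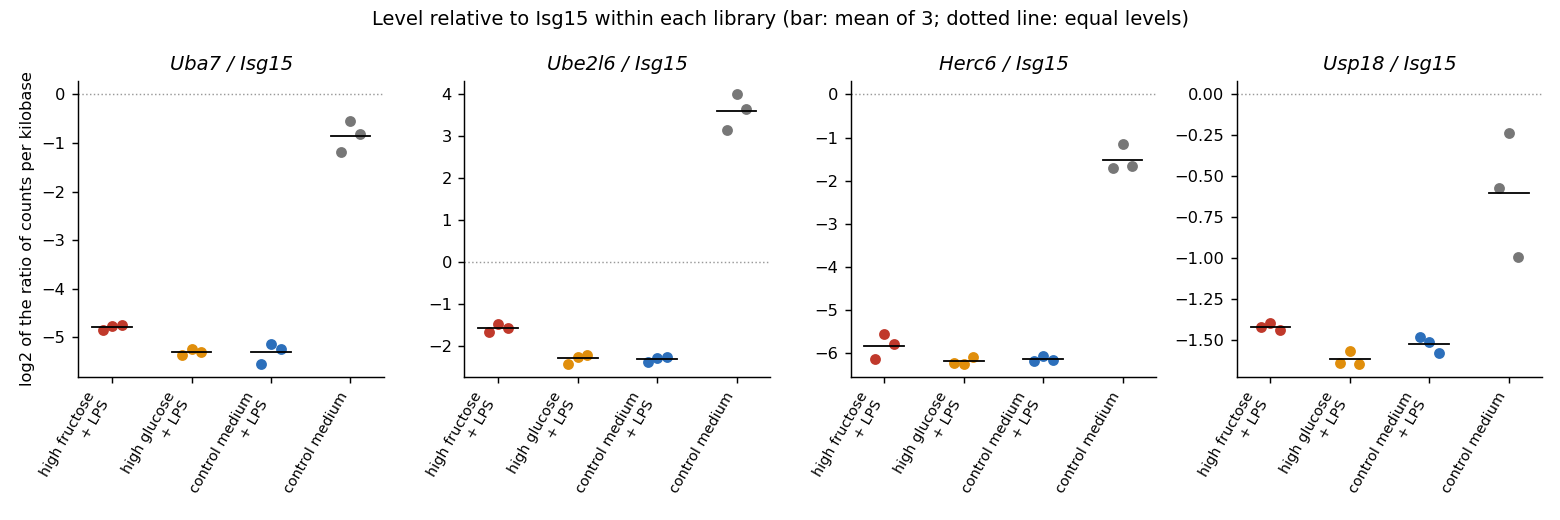
Log2 of each gene's level relative to Isg15 within a library, in counts per kilobase, with the mean of 3 libraries as a bar and equal levels as a dotted line. Ube2l6 is below Isg15 in the 9 libraries with LPS and above it, at 3.59 on average, in the 3 without.

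Upstream of these genes are interferon beta, its receptor and the factors that it activates. Ifnb1, the interferon beta gene, had at most 3 counts in any library, which was too low to test, and no level or change can be read from it. Of the other 9 listed genes of interferon induction and signalling, 6 rose with LPS in control medium. Irf7, a factor that amplifies interferon production, rose by 3.96 on the log2 scale, and the ISGF3 subunit genes Stat2 and Irf9 rose by 2.24 and 2.07.

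With high fructose 4 of these 9 were called lower than under LPS in control medium, and none was called higher. Irf7 stood at 73.7 ± 5.39 CPM with high fructose and 141 ± 7.47 CPM in control medium with LPS (SD, n = 3), and fell by 0.93 on the log2 scale (adjusted p = 1.56e-07). Stat2 fell by 0.69 (adjusted p = 4.63e-05). Irf9 fell by 0.25 (adjusted p = 0.0200), a call that was lost without control-medium LPS library 1 (adjusted p = 0.0957) or 2 (0.0860) and without high-fructose library 1 (0.0755) or 3 (0.0852). The median log2 fold change of the 9 was -0.11.

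Tyk2, a kinase bound to the interferon receptor, stood at 93.0 ± 3.09 CPM with high fructose, 75.3 ± 6.47 CPM with high glucose and 94.2 ± 6.01 CPM in control medium with LPS (SD, n = 3). It fell by 0.32 on the log2 scale with high glucose (adjusted p = 0.0168), the only call among the 9 there. That call was lost without control-medium LPS library 1 (adjusted p = 0.104) or 2 (0.0780) and without high-glucose library 2 (0.0633) or 3 (0.0675). Against high glucose, high fructose gave 3 lower genes of the 9, among them Irf7 and Stat2 with log2 fold changes of -0.78 and -0.56, and Tyk2 was higher by 0.30 (adjusted p = 0.0111; 0.0698 without high-glucose library 2 and 0.0555 without high-fructose library 3).

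Related enzymes of other ubiquitin-like systems were counted in the same way. Of 9 other E1 enzymes and subunits, edgeR called none in the 3 sugar comparisons (1 had an unadjusted p below 0.05 between the sugars, none in the others; DESeq2 and limma called none). With LPS, 2 of the 9 were called, against 28.8% of all tested genes. Sae1 and Uba2, which form the E1 of SUMO, were lower by 0.21 and 0.13 on the log2 scale. Uba2 was lost in 5 of 6 fits that left out 1 library. Its adjusted p was 0.142, 0.0518 and 0.112 without no-LPS libraries 1, 2 and 3 and 0.215 and 0.126 without control-medium LPS libraries 2 and 3.

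Of 15 other E2 enzymes, 4 were called with LPS, against 28.8% of all tested genes. Ube2e2 (0.57), Ube2f (0.53) and Ube2d3 (0.22) rose and Ube2c (-0.26) fell on the log2 scale. In the sugar comparisons none of the 15 was called by edgeR, DESeq2 or limma (unadjusted p below 0.05 in 1 with high fructose, 4 with high glucose and 1 between the sugars). The same held for 4 other HERC genes (1, 1 and 0 with an unadjusted p below 0.05), whose log2 fold changes lay between -0.13 and 0.12 with high fructose. Their LPS changes, from -0.12 to 0.03, were not called either, by any of the 3 tools, and none had an unadjusted p below 0.05. With 4.91% of all tested genes called with high fructose, few calls would be made in lists of this size, and the difference between Uba7, Ube2l6 or Herc6 and these relatives was not tested.

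Trim25, a ligase reported to attach ISG15 in human cells, rose by 1.26 with LPS on the log2 scale. It stood at 526 ± 14.4 CPM with high fructose, 591 ± 11.1 CPM with high glucose and 551 ± 9.996 CPM in control medium with LPS. With high fructose its log2 fold change was -0.07 (adjusted p = 0.461). Between the sugars it was lower with high fructose by 0.17 (adjusted p = 0.0198), a call lost without high-glucose library 3 (adjusted p = 0.0778) or high-fructose libraries 1 (0.0737) or 3 (0.0734). Of 13 tested genes of ubiquitin and its relatives, Ubb rose with LPS by 0.33 on the log2 scale, and 77.8% of the Ubb transcript matches another gene, so its reads are uncertain. In the sugar comparisons edgeR, DESeq2 and limma called none of the 13 (unadjusted p below 0.05 in 1 with high fructose, 4 with high glucose and 1 between the sugars).

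Proteases other than USP18 are also reported to act on ISG15. Of 6 such genes, Usp16 rose by 0.36 with LPS on the log2 scale and Usp2 fell by 0.27. None was called by the 3 tools in a sugar comparison (1 in each with an unadjusted p below 0.05). The call of Usp2 was lost in 4 fits, with adjusted p of 0.0843, 0.108 and 0.0982 without no-LPS libraries 1, 2 and 3 and 0.260 without control-medium LPS library 3. Among 4 partners and regulators of USP18, Stat2 alone was called, higher with LPS and lower with high fructose. ISG15 released from cells is reported to act on lymphocytes through an integrin made of Itgal and Itgb2. Itgb2 stood at 343 ± 5.32 CPM with high fructose, 281 ± 2.61 CPM with high glucose and 333 ± 5.78 CPM in control medium with LPS. It fell by 0.24 on the log2 scale with high glucose (adjusted p = 0.00515) and was higher with high fructose than with high glucose by 0.29 (adjusted p = 0.000373).

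Reported targets of ISGylation were split. Of 17, 9 rose and 2 fell with LPS, against 15.2% called higher and 13.6% called lower over all tested genes. The call of Eif4e2, among the 9, was lost in all 6 fits that left out 1 library (adjusted p from 0.0548 to 0.129). With LPS, the clearest by p were Ddx58 (4.40), which encodes the RNA sensor RIG-I, Ifih1 (3.51), which encodes the sensor MDA5, and Eif2ak2 (1.61), which encodes the kinase PKR, all on the log2 scale. The antiviral GTPase gene Mx1 had 207, 176 and 175 counts with LPS and 5, 2 and 1 without it. With high fructose 5 of 17 were called lower than under LPS in control medium, and none was called higher. Among them on the log2 scale were Mx1 (-1.75), Ddx58 (-0.95), Ifih1 (-0.84) and Eif2ak2 (-0.65). These 4 were also among the 9 that rose with LPS. Over all tested genes 2.55% were called lower with high fructose and 2.37% higher. The median log2 fold change of the 17 was -0.02. Against high glucose, high fructose gave lower levels of these 4 as well, with log2 fold changes of -1.49 (Mx1), -0.80 (Ddx58), -0.59 (Ifih1) and -0.47 (Eif2ak2). With high glucose 1 of 17 was called, Eif4e2, higher by 0.19 (adjusted p = 0.0450), and it was lost in all 6 fits that left out 1 library (adjusted p from 0.0838 to 0.191).

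With high fructose the median log2 fold change was -0.78 for the 5 ISG15 genes, -1.37 for 6 Ifit genes and -0.43 for 7 Oas genes, differences that were not tested. The 6 Ifit genes, which encode proteins that bind viral RNA, were all lower with high fructose, by 1.20 to 1.48 on the log2 scale, and none was called with high glucose (2 with an unadjusted p below 0.05; 0 by DESeq2 and limma). Of the Oas genes, which encode sensors of double-stranded RNA and relatives of them, 6 were lower with high fructose by edgeR and 5 by limma. The call of Oas3 was lost without control-medium LPS library 2 (adjusted p = 0.150) or 3 (0.141) and without high-fructose library 1 (0.126) or 3 (0.0692). With high glucose edgeR called none of the Oas genes (1 with an unadjusted p below 0.05; 1 by DESeq2, 0 by limma). Oasl2 was the lowest of them with high fructose (-1.08), close to Isg15 (-1.09).

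**Figure D4:**
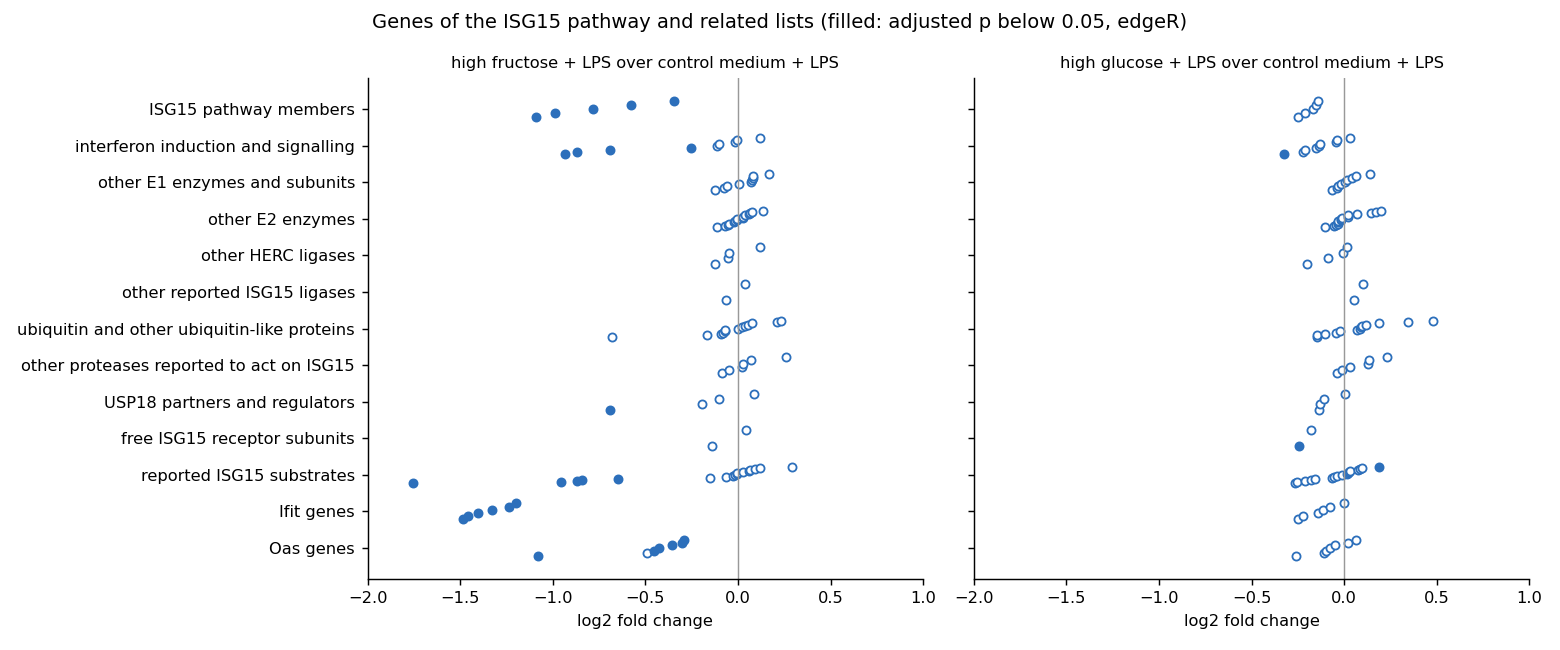
Log2 fold change of every tested gene of each list with high fructose and with high glucose, each against control medium with LPS, filled where the adjusted p was below 0.05 (edgeR). The 5 ISG15 genes are all filled and below 0 with high fructose, and the other E1, E2 and HERC genes lie around 0 and are open.

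Profiles most like those of the 5 genes were ranked among 11305 tested protein-coding genes by the root mean square difference of centred log2 CPM over the 12 libraries. Nearest to Isg15 were Gbp7 (0.196), Apol9a (0.279), Cxcl10 (0.312), Ccl5 (0.324) and Ifit1 (0.329). Nearest to Usp18 were Gbp2 (0.169) and Oasl2 (0.249), to Uba7 Cd274 (0.123) and Parp10 (0.124), to Herc6 Parp12 (0.116) and Tap1 (0.117), and to Ube2l6 Pnpt1 (0.0557) and Litaf (0.0605). No member was among the nearest of another over these 12 libraries. The difference between libraries with and without LPS weighs most in this measure. With high fructose against control medium with LPS, the log2 fold changes of the 5 genes nearest to Isg15 were -1.23 (Gbp7), -0.94 (Apol9a), -1.36 (Cxcl10), -0.46 (Ccl5) and -1.33 (Ifit1). All but Ccl5 (adjusted p = 0.0850) were called, against 2.55% of all tested genes called lower. The ranking that picked these genes used the same libraries, so their fall is not a separate result.

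Reads of the 5 genes could be shared with other genes only in part. Of the longest Herc6 transcript 26.7% matches another gene, and 13.7% of its exons overlap Gm45193 on the same strand. The match and the overlap may be the same bases, which was not tested. Gm45193 had 0 counts in every library, and whether reads in the overlap were left out of the Herc6 count was not tested. The matching shares were 7.11% for Usp18 and 5.75% for Uba7, and 0 for Isg15 and Ube2l6. Usp18 overlaps Gm44148 on the other strand over 4.44% of its exons, a gene with at most 2 counts, and whether the counting used strand is not stated in the labels or notes used here.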

How the data were processed

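RNA sequencing gave 12 libraries of N9 cells, which the labels place in 4 groups of 3. For each Ensembl gene the authors deposited a read count that was not normalized, and the submitters' processing notes name featureCounts 1.5.0-p3 and mm10. A second deposited table holds FPKM, in which each value equals the count over gene length and 1 constant per library (largest deviation 1.18e-07% among genes with at least 200 counts). Libraries were prepared at a sequencing company per the labels. The sources used here do not give the aligner, annotation release, strand setting or trimming.

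Tests on the counts used edgeR 4.0.16 (R 4.3.3) over 12766 genes kept by filterByExpr, with TMM factors, all 12 libraries, 1 coefficient per group and 8 residual degrees of freedom, and calls at an adjusted p below 0.05. The SE comes from the quasi-likelihood F statistic. CPM uses TMM-scaled library totals, with a prior count of 2 for profile likeness, and ratios add 0.5 count. Alternatives used DESeq2 1.42.0, limma 3.58.1 on log2(FPKM + 0.1) or log2(FPKM + 1), other scalings, no filter, a replicate block, 2-group fits and leaving out libraries. The edgeR script was tested on simulated data. Exact permutation tests used scipy 1.17.1, and shared sequence was found with BLAST 2.17.0+ (98% identity over at least 75 bases, GENCODE M21).

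The 5 genes and all lists were chosen with earlier results of these data known. Of each list the text names up to 4 genes with the smallest p for LPS and those called in a sugar comparison, and the 5 profiles nearest to Isg15 and 2 nearest to each other gene. Protein sequences were not used here. Leaving out high-glucose library 1 and high-fructose library 2 together, profile likeness over the 9 libraries with LPS, and levels by longest transcript were alternatives chosen after seeing the data. Some genes counted in the lists are not reported here by name.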

Additional observations from a re-analysis of the deposited data

Results flagged for a closer look

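The effect of high fructose under LPS differed from that of high glucose in 4 of the 5 genes. This is by the test between the sugars (edgeR, adjusted p below 0.05), which called 3.72% of all tested genes, 1.88% lower. The difference, high fructose minus high glucose on the log2 scale, was -0.94 for Isg15, -0.74 for Usp18, -0.57 for Herc6 and -0.41 for Uba7. The difference for Uba7 was called in 2 of 6 fits that left out 1 library, and those of Isg15, Usp18 and Herc6 were called in 6 of 6.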

How the results depend on the processing

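The 5 genes kept their direction in every comparison and setting run, and their calls with LPS and with high fructose against control medium held throughout. The high-glucose count of all genes, 199, was 427 with no filter, 391 with a replicate block, 329 with DESeq2, 118 and 126 with limma on log2(FPKM + 0.1) and log2(FPKM + 1), 100 with limma and no filter, and 67 to 177 with 1 library left out. Of the 5 genes, 1 instead of 0 was called with high glucose with no filter and with the block, Usp18 (adjusted p = 0.00431 and 0.0194). Between the sugars the count of all genes, 475, was 735 with the block and 247 in a 2-group fit, and 2 instead of 4 of the 5 genes were called with limma and no filter. Ube2l6 was then called with the block (adjusted p = 0.0462), and Uba7 was lost in the 2-group fit (0.0558) and with limma (0.0713, 0.0599 and 0.123). Whether the replicate numbers used by the block pair libraries across groups was not settled. Same-numbered libraries correlated between -0.194 and 0.119 in their deviations from group means, and not every library correlated best with its own number. In each of the 4 groups, however, library 1 had the lowest share of counts from mitochondrial genes (0.518 to 0.618%). It also had the highest share from genes of ribosomal RNA (0.423 to 0.585%) and the highest CPM of Isg15 and Usp18. Herc6 between the sugars was lost with limma and no filter (0.0631). The cause of these changes was not tested. The log2 ratio to Isg15 with high glucose against control medium under LPS changed sign when 1 library was left out, ranging from -0.121 to 0.0787 for Uba7 (-0.00415 over all libraries) and from -0.0233 to 0.0751 for Ube2l6 (0.0145 over all libraries), both near 0. Isg15 had 22 to 36 counts per library without LPS, which limits the precision of its ratios there.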

Other observations

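In an alternative chosen after seeing the data, profile likeness was computed over the 9 libraries with LPS only, where the difference between media weighs most. Usp18 was then the gene nearest to Isg15 (root mean square difference of centred log2 CPM 0.0864), followed by Oasl2 (0.0925), Gbp3 (0.0996), Igtp (0.0998) and Irf7 (0.09999). Irf7 (0.0745) and Igtp (0.0808) were nearest to Usp18. Nearest to Herc6 were Parp11 (0.0818) and Parp10 (0.0855), to Uba7 Fundc1 (0.0753) and Timeless (0.0858), and to Ube2l6 Pnpt1 (0.0397) and Tmem18 (0.0452). Pnpt1 was nearest to Ube2l6 over all 12 libraries as well.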
